A study of Homo sapiens with 10 samples.

Results

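The interleukins and their receptors were read out in 697 cells, a line from a human leukaemia of B-cell precursors (pre-B), before and after exposure to the phorbol ester TPA, an activator of protein kinase C. The members were every protein-coding gene of the expression table whose symbol starts with IL and a number, with IL4I1 (an amino acid oxidase) and IL18BP (a soluble binding protein) left out. This gave 83 genes of the 27142 in the table, 42 ligands (the receptor antagonist IL1RN among them) and 41 receptor genes. The RNA libraries came from parental 697 cells, 2 untreated (control replicates 1 and 2) and 2 treated with 0.5 µg/ml TPA (TPA replicates 1 and 2). The labels give the time in TPA only as a range from 0 to 24 h for the whole series, so the hours behind the TPA libraries are not known. Total RNA was taken from 1 cell line in RPMI1640 with fetal bovine serum, with no bystander cells and no added cytokine named in the labels. Of the 10 samples of the series, the other 6 (CTCF ChIP, linker histone H1 ChIP and input DNA) were not analysed here.

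Interleukins are secreted signals that act through receptors built from several chains. The common gamma chain, encoded by IL2RG, is shared by the receptors for IL-2, IL-4, IL-7, IL-9, IL-15 and IL-21, which signal through the JAK1 and JAK3 kinases and STAT factors. IL-7 is a growth and survival signal of early B-cell precursors, and its own receptor chain IL7R is made at that stage. IL-2 and IL-15 share a second signalling chain, IL2RB, and differ in their private alpha chains, IL2RA and IL15RA. The IL-6 and IL-12 families use receptors related to IL6ST, the IL-10 family uses class II cytokine receptors, and the IL-1 family signals through Toll-like domains and the adaptor MyD88.

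Levels are in RPKM, read numbers divided by the length of the transcript and the size of the library, so they are relative to each library and can be compared between genes. Summed RPKM ran from 349438 to 388846, and 11449 to 11878 genes were at 1 RPKM or more. The number of reads is not given, but the spacing of low values put the other libraries at 91.3% to 97.7% of the depth of control replicate 1. All 11 pre-B markers examined were measured above the filter on low values, and of these 4 rose and 7 fell with TPA. In a bulk sample, fewer cells with a transcript and less of it in each cell cannot be told apart. A gene was tested when 2 or more of the 4 libraries had 1 RPKM or more of it, which left 12159. Differences are TPA minus control in log2(RPKM + 1) with the standard error from limma, which understates the change of genes near 0. "Rose" and "fell" mean an adjusted p under 0.05 over all genes tested.

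Most measured interleukin receptor transcripts were higher with TPA, while the one that dominated the control cells was lower. IL7R fell 7.93-fold, from the highest of all members in control to the seventh with TPA. The other measured chains of the common gamma chain receptors (IL2RG, IL2RA, IL2RB, IL15RA, IL21R and IL4R) rose, as did the measured chains of the IL-12, IL-6, IL-10 and IL-17 receptor families. Of the ligands, IL16 and IL1RN rose, IL17D fell, and the value of IL24 rose with that of a gene that overlaps it. Most other ligands, including IL2, IL4 and IL6, were at or near 0 in all 4 libraries.

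Of the 83 members, 19 (22.9%) passed the filter, against 55.8% of the 19302 protein-coding genes. All 19 were called, 17 as risen and 2 as fallen, where 28.4% of all genes tested rose, 29.8% fell and 58.2% changed in either direction. Both TPA values were above both control values for 17 members and below for 2, against 38.8% and 41.0% of the genes tested, so the groups of none of the 19 overlapped, as held for 79.8% of genes. The 19 had a median difference of 1.29, against -0.02 over all genes tested. IL1RN, IL2RA and IL2RB passed the filter only through their TPA values and so had to be higher with TPA. Among the 15 members with at least 1 RPKM in both control libraries, 13 rose and 2 fell, with a median of 0.98. Over the 11268 genes of the table that met the same condition, 24.0% rose, 32.1% fell and the median was -0.08. For 11 members the rise was at least 1 on the log2 scale, which 11.7% of genes tested reached.

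**Figure D1:**
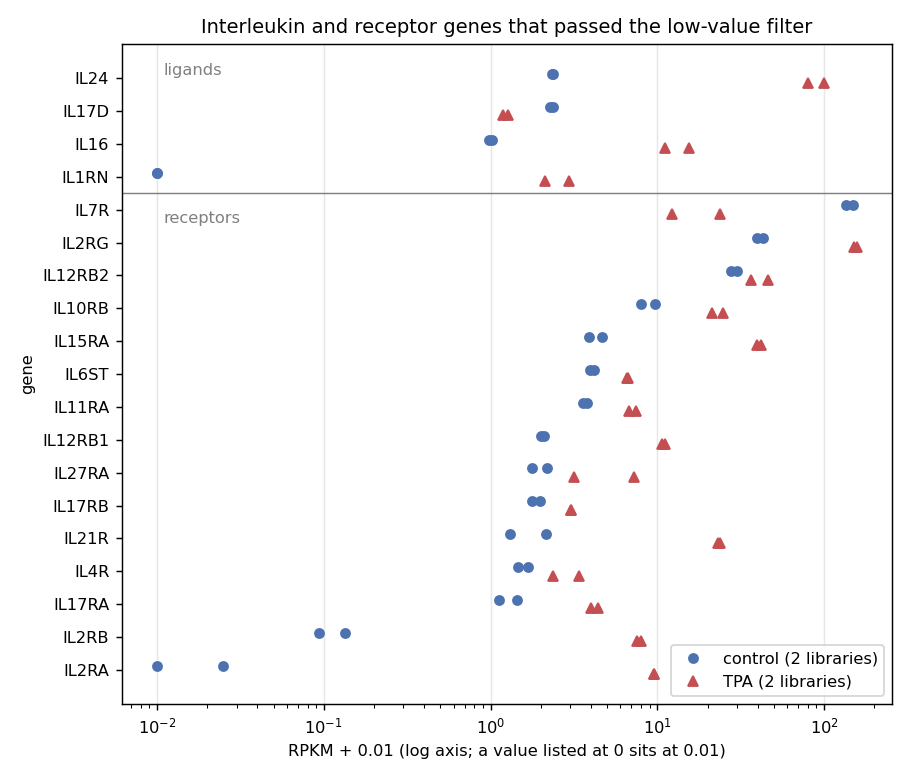
Level of each of the 19 tested interleukin and receptor genes in the 2 control libraries (circles) and the 2 TPA libraries (triangles), in RPKM plus 0.01 on a log axis, with ligands above the line and receptors below it. The triangles lie to the right of both circles for 17 genes and to the left for IL7R and IL17D.

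The receptor chains of the common gamma chain family included the most abundant member of each group, IL7R in control and IL2RG with TPA. IL7R (5p13.2), the alpha chain of the IL-7 receptor, stood at 135 and 149.9 RPKM in control and at 12.2 and 23.7 RPKM with TPA. Its difference was -2.99 ± 0.26 (adjusted p 3.93e-05), and the lower control value was 5.70 times the higher TPA value. Both TPA values were far below both control values. IL7R is listed under a non-coding transcript accession of the gene, and its neighbour on the chromosome CAPSL, a gene for a calcium-binding protein, also fell, with a difference of -1.34 ± 0.16 (adjusted p 2.37e-04), having passed the filter only through its control values.

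IL2RG (Xq13.1), the common gamma chain, went the other way. It was at 43.2 and 39.5 RPKM in control and at 158 and 150.1 RPKM with TPA, a 3.73-fold rise (1.87 ± 0.13, adjusted p 1.25e-05). The 2 chains of the IL-7 receptor therefore changed order. The ratio of IL7R to IL2RG was 3.13 and 3.79 in control and fell under 1 with TPA, at 0.0773 and 0.158. IL7R made up 55.2% and 57.8% of the summed RPKM of all members in control and 2.74% and 4.79% with TPA, while IL2RG made up 17.7% and 15.2%, then 35.4% and 30.3%.

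The IL-2 receptor chains were nearly silent before TPA. IL2RA (10p15.1), the alpha chain that gives the IL-2 receptor its high affinity, was listed at 0 and 0.015 RPKM in control and at 9.49 and 9.55 RPKM with TPA (3.38 ± 0.12, adjusted p 5.91e-07). IL2RB (22q12.3), the beta chain shared by the IL-2 and IL-15 receptors, went from 0.084 and 0.125 RPKM to 7.53 and 8.01 RPKM (2.99 ± 0.13, adjusted p 1.02e-06). Both genes moved from under 1 RPKM in each control library to over 7 RPKM in each TPA library. Over the whole table, 5.41% of the genes tested were at 1 RPKM or more in both TPA libraries and in neither control library.

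IL15RA (10p15.1), which binds IL-15 and presents it to cells carrying the beta and gamma chains, is the neighbour of IL2RA. It rose 9.50-fold, from 3.88 and 4.68 RPKM to 39.5 and 41.9 RPKM (2.98 ± 0.14, adjusted p 1.64e-06). Like IL7R, IL15RA is listed under a non-coding transcript accession of the gene. RBM17, the splicing factor gene on the other side of IL2RA, rose as well (2.38 ± 0.16, adjusted p 7.89e-06), so 3 adjacent genes of that band were all higher with TPA. Over all genes tested 28.4% rose, and IL2RA passed the filter only through TPA and had to be higher. FBH1, on the other side of IL15RA, has no row of that name and was not read. IL21R (16p12.1), the private chain of the IL-21 receptor, rose 13.6-fold, from 2.14 and 1.29 RPKM to 23.0 and 23.7 RPKM (3.18 ± 0.17, adjusted p 2.89e-06). IL4R, its neighbour in the same band and the alpha chain for IL-4 and IL-13, moved less, from 1.45 and 1.67 RPKM to 2.37 and 3.38 RPKM (0.59 ± 0.16, adjusted p 0.0141). With no filter on low values the adjusted p of IL4R was 0.0756.

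**Figure D2:**
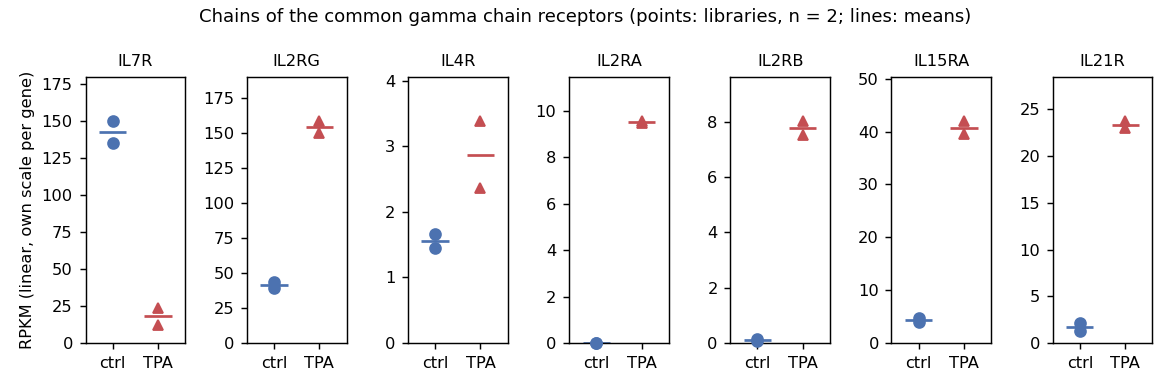
Level of the 7 measured chains of the common gamma chain receptors, in RPKM on a linear axis that starts at 0 and has its own range for each gene, with 1 point for each of 2 libraries per group and a line at the mean. IL7R is the chain that falls, and IL2RA and IL2RB lie at or close to 0 in both control libraries.

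The 250 bases before the RefSeq start sites of 3 of these genes (build GRCh38.p14) are shown because they mark the extremes of the family: the chain that fell, the most abundant chain with TPA, and the chain that rose from near 0. Capitals mark matches to 6 motifs searched on both strands: AP-1 (TGANTCA), CRE (TGACGTCA), STAT (TTCNNNGAA), ETS (CCGGAAG), EGR (GCGNGGGCG) and the NF-κB consensus.
IL7R, chr5:35856641-35856890, plus strand: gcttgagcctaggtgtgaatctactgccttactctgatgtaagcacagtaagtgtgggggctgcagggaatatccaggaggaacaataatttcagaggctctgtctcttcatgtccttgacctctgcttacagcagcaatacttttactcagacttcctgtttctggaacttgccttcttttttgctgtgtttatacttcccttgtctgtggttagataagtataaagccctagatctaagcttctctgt
IL2RG, chrX:71111578-71111827, minus strand: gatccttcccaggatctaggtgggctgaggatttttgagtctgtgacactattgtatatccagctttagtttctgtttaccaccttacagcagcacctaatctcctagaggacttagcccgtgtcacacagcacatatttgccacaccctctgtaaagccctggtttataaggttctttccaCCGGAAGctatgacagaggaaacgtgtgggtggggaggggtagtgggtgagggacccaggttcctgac
IL2RA, chr10:6062368-6062617, minus strand: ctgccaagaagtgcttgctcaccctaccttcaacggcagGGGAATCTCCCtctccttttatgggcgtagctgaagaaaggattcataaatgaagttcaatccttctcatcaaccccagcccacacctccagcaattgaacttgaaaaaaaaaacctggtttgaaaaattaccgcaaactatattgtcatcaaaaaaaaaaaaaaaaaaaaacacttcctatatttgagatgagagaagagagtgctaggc

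The IL7R window held no match to any of the 6 motifs as written. The ETS motif was searched as that exact string, so other ETS-type sites were not counted. Its letters GGAAG occur on 1 strand or the other in each of the windows shown. The IL2RG window held 1 match to the ETS motif, which starts at position -68 from the start site. The IL2RA window held 2 overlapping matches to the NF-κB consensus at positions -211 and -210, which are 1 stretch read on its 2 strands. Over 34943 windows of the same length, the share with a match was 8.48% for ETS, 5.20% for the NF-κB consensus, 6.59% for AP-1, 6.56% for STAT, 8.39% for EGR and 1.63% for CRE. A match is only a run of letters, and no binding was measured in these libraries.

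Of the 8 receptor genes of the IL-12 and IL-6 families, 5 were tested, and all 5 rose. IL12RB1 (19p13.11), the chain shared by the IL-12 and IL-23 receptors, was at 2.10 and 1.995 RPKM in control and at 10.7 and 11.2 RPKM with TPA (1.97 ± 0.13, adjusted p 7.44e-06). Its partner for IL-12, IL12RB2 (1p31.3), was the third most abundant member in both groups. It stood at 27.8 and 30.1 RPKM in control and 36.7 and 45.9 RPKM with TPA (0.49 ± 0.15, adjusted p 0.0246). The groups of IL12RB2 did not overlap, but its call was lost under several alternatives. With TPA replicate 2 left out the difference was 0.33 (adjusted p 0.103), and with no filter on low values it was again 0.49 (adjusted p 0.0622). It was 0.43 with control replicate 1 left out (adjusted p 0.146) and 0.55 with control replicate 2 left out (adjusted p 0.0616), in fits whose prior degrees of freedom became infinite, so that these p-values cannot be set against the others. With TPA replicate 1 left out the call was kept, at a difference of 0.65 (adjusted p 0.0139). IL23R, the private IL-23 receptor chain and the neighbour of IL12RB2, had no value above 0.008 RPKM.

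IL6ST (5q11.2), the signal-transducing chain of the IL-6, IL-11 and IL-27 receptors, rose from 4.15 and 3.96 RPKM to 6.58 and 6.64 RPKM (0.59 ± 0.13, adjusted p 0.00457). IL11RA (9p13.3), the IL-11 binding chain, rose from 3.59 and 3.77 RPKM to 7.44 and 6.71 RPKM (0.79 ± 0.13, adjusted p 0.00126). IL27RA (19p13.12), the IL-27 receptor alpha chain, was at 1.77 and 2.16 RPKM in control and at 3.18 and 7.20 RPKM with TPA (0.98 ± 0.28, adjusted p 0.0168). TPA replicate 2 held the high value of IL27RA, and without that library the difference was 0.50 (adjusted p 0.0288). With no filter on low values the adjusted p of IL27RA was 0.120.

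Single chains of the IL-10 and IL-17 receptor families were also higher. IL10RB (21q22.11), the chain shared by the receptors for IL-10, IL-22 and the lambda interferons, rose from 8.03 and 9.70 RPKM to 21.4 and 24.9 RPKM (1.29 ± 0.15, adjusted p 1.82e-04). IL17RA (22q11.1), the common chain of the IL-17 receptors, rose from 1.43 and 1.115 RPKM to 4.37 and 3.996 RPKM (1.19 ± 0.14, adjusted p 1.73e-04). IL17RB (3p21.1), which binds IL-25, rose from 1.97 and 1.76 RPKM to 3.03 and 3.01 RPKM (0.49 ± 0.13, adjusted p 0.0117). With control replicate 2 left out the difference of IL17RB was 0.43 and did not pass (adjusted p 0.113), in a fit whose prior degrees of freedom also became infinite, so that this p cannot be set against the main one. For all 3 genes both TPA values were above both control values.

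Most of these receptors are built from several chains, so the members were also read by complex. The chains of 28 receptors were written down after their values were known. A complex is called complete in a group when the RNA of every chain was at 1 RPKM or more in both its libraries. This does not show that the receptor was made or worked. For 3 of them (the IL-9, TSLP and IL-3 receptors) a chain lies in the regions shared by chromosomes X and Y. Of 27 genes in bands of both X and Y, 26 were listed at 0 in every library, and the other had no value above 0.003 RPKM, so the zeros of IL3RA, IL9R and CRLF2 carry no information about expression. Of the remaining 25 complexes, 8 had every chain at 1 RPKM or more in both control libraries and 11 in both TPA libraries. The 8 were the receptors for IL-7, IL-4 (type I), IL-21, IL-11, IL-12, IL-27, IL-25 and the lambda interferons.

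The 3 complexes complete only with TPA were the high-affinity IL-2 receptor, the intermediate-affinity IL-2 receptor and the IL-15 receptor. All 3 hold IL2RB, so they do not count as separate results. IL2RB and IL2RA passed the filter only through their TPA values, so these 3 complexes could not be complete in control. No complex was complete in control and incomplete with TPA. In the IL-7 receptor the scarcer chain was IL2RG in control, at 43.2 and 39.5 RPKM, and IL7R with TPA, at 12.2 and 23.7 RPKM. For 14 complexes a chain stayed under 1 RPKM in at least 1 library of each group. In the IL-6 receptor the low chain was IL6R, at 0 in both controls and at 0.052 and 0.080 RPKM with TPA. In the IL-10 receptor it was IL10RA, at 0.006 and 0.018 RPKM and then 0.179 and 0.409 RPKM. None of the 9 IL-1 receptor family genes passed the filter, and none had a value of 0.1 RPKM in any library.

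Few ligands were measured. IL16 (15q25.1), a chemoattractant for cells that carry the CD4 receptor, was at 1.01 and 0.963 RPKM in control and at 11.1 and 15.6 RPKM with TPA (2.83 ± 0.17, adjusted p 4.95e-06). IL1RN (2q14.1), the antagonist that blocks the IL-1 receptor, was listed at 0 in both controls and at 2.93 and 2.13 RPKM with TPA (1.81 ± 0.15, adjusted p 2.82e-05). IL17D (13q12.11), an IL-17 family cytokine, fell from 2.35 and 2.26 RPKM to 1.17 and 1.27 RPKM (-0.58 ± 0.13, adjusted p 0.00508). IL17D was thus the only tested ligand lower with TPA, and IFT88, a ciliary transport gene that neighbours it, moved the other way (0.56 ± 0.14, adjusted p 0.0112).

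IL24 (1q32.1), an IL-10 family cytokine, had the largest difference of the 19 members in log2(RPKM + 1). With a pseudocount of 0.1 in place of 1 the differences of IL2RA (6.49) and IL2RB (5.27) were above that of IL24 (5.20). IL24 was at 2.33 and 2.35 RPKM in control and at 80.6 and 100.1 RPKM with TPA (4.77 ± 0.15, adjusted p 3.51e-07). IL24 overlaps FCMR, the gene for the Fc receptor of IgM, on the opposite strand. FCMR stood at 13.4 and 12.4 RPKM in control and at 426 and 509 RPKM with TPA (5.07 ± 0.15, adjusted p 2.44e-07). The ratio of IL24 to FCMR was 0.174 and 0.188 in control and 0.189 and 0.197 with TPA. Whether the reads were counted by strand is not given in the sources used here, so reads from IL24 and from FCMR cannot be told apart. The other genes next to IL24 split, with IL20 at 0.019 RPKM or less in every library and PIGR, the transporter of polymeric immunoglobulins, at 0 in both controls and at 2.73 and 3.33 RPKM with TPA.

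In all, 6 of the 19 tested members overlap, in RefSeq's annotation, another gene that has a row in the table, each on the opposite strand. STARD5, a lipid transfer gene over IL16, went from 0.339 and 0.592 RPKM to 3.39 and 5.55 RPKM. MAST3, a kinase gene over IL12RB1, went from 4.14 and 3.76 RPKM to 18.8 and 14.4 RPKM. ACTR8, an actin-related gene over IL17RB, was at 10.8 and 10.5 RPKM and then 14.8 and 13.7 RPKM. Each of these overlapping genes was higher with TPA in both libraries, so how much of the member's rise is its own cannot be told apart from these values. The antisense transcript IL21R-AS1 went from 1.47 and 0.880 RPKM to 14.0 and 14.3 RPKM, and its ratio to IL21R was 0.686 and 0.681 in control and 0.607 and 0.603 with TPA. CCL27, a chemokine gene over IL11RA, had no value above 0.144 RPKM, far under IL11RA. Of the 13 tested members with no such overlap, 11 rose and 2 fell, where 28.4% and 29.8% of all genes tested did. Among the 11 are IL1RN, IL2RA and IL2RB, which passed the filter only through TPA and had to be higher. Some of the 13, such as IL2RA and IL2RB, overlap an antisense gene with no row, and IL10RB has an antisense gene, IL10RB-AS1, whose ratio to it was 0.0966 and 0.0869 in control and 0.107 and 0.102 with TPA.

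**Figure D3:**
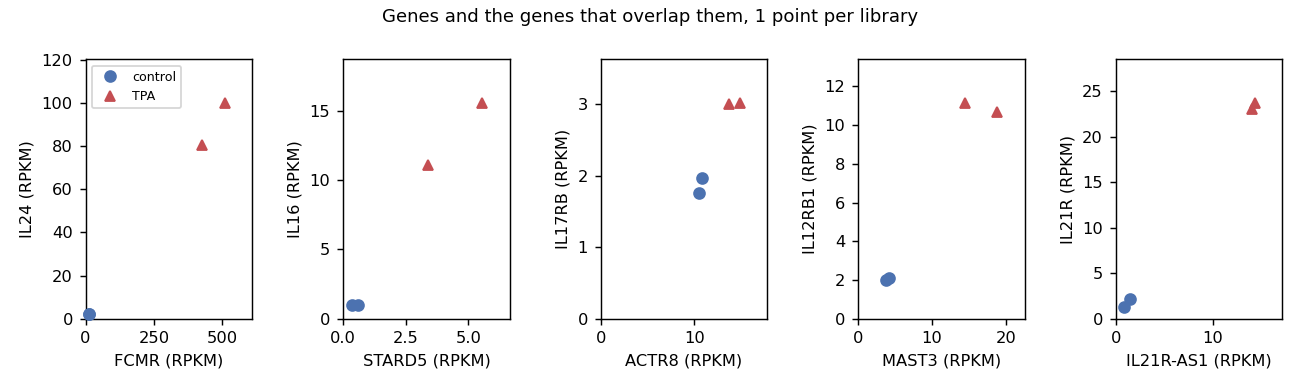
Level of 5 members (vertical axis, RPKM) against the level of the gene that overlaps each on the opposite strand (horizontal axis, RPKM), both linear and starting at 0, with 1 point per library. In each panel the 2 TPA libraries (triangles) lie above and to the right of the 2 control libraries (circles), and the IL24 points lie near 1 line through 0.

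**Figure D4:**
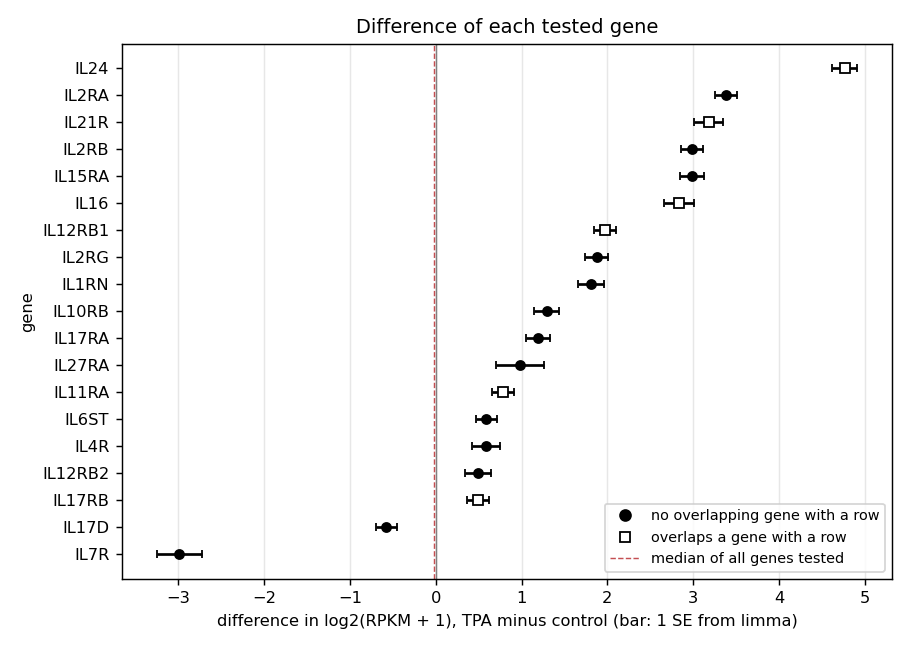
Difference of each tested member, TPA minus control in log2(RPKM + 1), with bars of 1 standard error from limma. Open squares mark the 6 members that overlap a gene with a row in the table, filled circles the 13 others, and the dashed line the median of all genes tested (-0.02).

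Of the 64 members under the filter, 38 had a value above 0 in some library and 26 had none. At 0 in all 4 libraries were 26 of the 83 members (31.3%), 18 ligands and 8 receptors, against 16.7% of protein-coding genes, with the X and Y zeros among them. IL2, the T-cell growth factor, IL6, an inflammatory cytokine, and CXCL8, the neutrophil chemokine once named IL-8 and no member by symbol, were listed at 0 throughout. IL4, the cytokine of helper T cells, had 0.077 RPKM in TPA replicate 1 and 0 elsewhere, and IL3, a progenitor growth factor, had 0.024 RPKM in that same library and 0 elsewhere. IL1B, the inflammatory ligand whose receptor IL1RN blocks, was at 0 in both controls and at 0.029 and 0.047 RPKM with TPA. A further 27 members had values above 0 that stayed under 0.1 RPKM.

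The other 11 reached 0.1 RPKM in some library without passing the filter, and they have values here but no test. IL18, an IL-1 family cytokine that drives interferon gamma, was listed at 0 in both controls and at 0.790 and 0.909 RPKM with TPA. IL23A, the private subunit of IL-23, was at 0.288 and 0.211 RPKM and then 0.755 and 0.720 RPKM. IL20RB, a receptor chain for IL-19, IL-20 and IL-24, was at 0.366 and 0.569 RPKM and then 1.19 and 0.984 RPKM. These 3 lay just under the filter, and their TPA values were well above their control values.

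IL10, an inhibitory cytokine that B cells can make, was at 0.262 and 0.270 RPKM in control and 0.509 and 0.417 RPKM with TPA. IL11, a stromal cytokine of the IL-6 family, was at 0.126 and 0.138 RPKM and then 0.257 and 0.305 RPKM. IL19, an IL-10 family cytokine, was at 0.042 and 0.085 RPKM and then 0.127 and 0.137 RPKM. For all 3 ligands both TPA values were above both control values, at levels where few reads decide a value. The IL-17 receptor chains IL17RC, IL17RD and IL17RE showed the same order at 0.686 RPKM or less, and for IL17RE the groups nearly met, at 0.351 and 0.232 RPKM in control and 0.358 and 0.375 RPKM with TPA. IL37, an inhibitory IL-1 family ligand, had 0.121 RPKM in control replicate 1 and 0 elsewhere. Both TPA values were thus above both control values for 10 of these 11 genes and below for 0, against 45.6% and 19.8% of the 3722 genes in the same range. IL18, IL19 and IL10RA reached 0.1 RPKM only through their TPA values and so had to be higher with TPA. For the 27 lower members the order was TPA above control in 8 and below in 0, against 938 and 292 of 4234 genes. Some of the 8, such as IL1B and IL6R, were listed at 0 in both controls. They came into this range only through TPA and could not be lower with it.

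Of the members, 16 and 15 were at 1 RPKM or more in control and 20 and 19 with TPA. The summed RPKM of all 83 members was 245 and 260 (0.0661% and 0.0671% of the library's total) in control and 447 and 495 (0.128% and 0.127%) with TPA, so the total rose although its largest control contributor fell. IL24, whose value may include FCMR reads, was 18.0% and 20.2% of the TPA sums. In order of level in control, IL7R was followed by IL2RG, IL12RB2, IL10RB and IL15RA. With TPA the order was IL2RG, IL24, IL12RB2, IL15RA and IL21R. The control values of IL7R, IL2RG and IL12RB2 did not overlap with their neighbours in this order, whereas IL17RB and IL27RA, ranked twelfth and eleventh in control, did overlap.

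**Figure D5:**
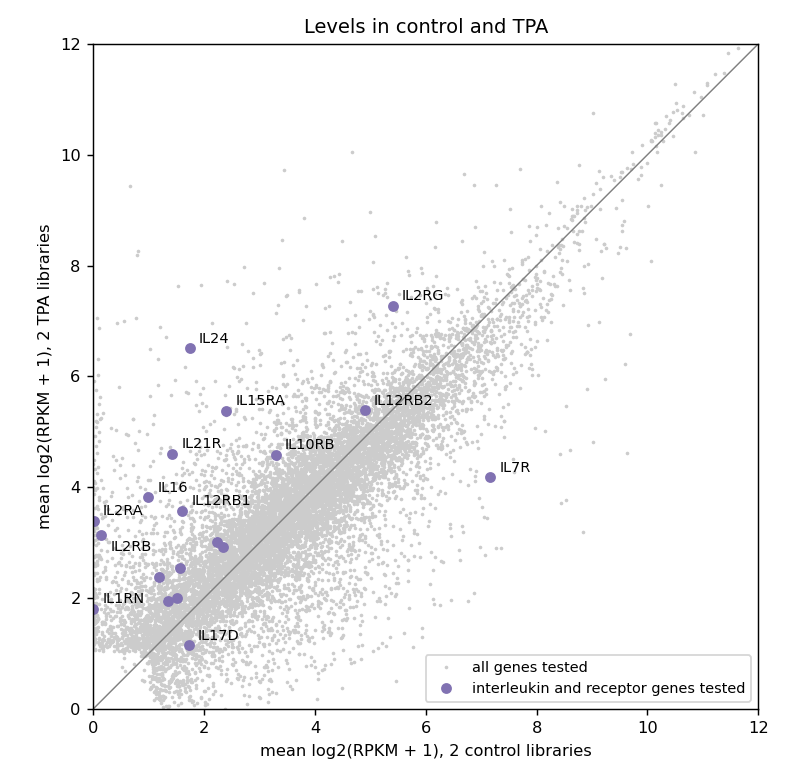
Mean log2(RPKM + 1) of the 2 control libraries (horizontal axis) and the 2 TPA libraries (vertical axis) for the 12159 genes tested (grey), with the 19 tested members in purple and a line of equal level. IL7R lies far below the line among the abundant genes, IL2RG above it, and IL1RN, IL2RA and IL2RB at the left edge.

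IL2RA, IL2RB and IL15RA are also typical of T and NK cells, so markers of those cells were read beside them. Of 9 T-cell markers, 7 were under 0.1 RPKM in every library, and the T-cell receptor genes CD3D and CD3E and the coreceptor gene CD8B were listed at 0 throughout. The other 2, CD28 (a costimulatory receptor) and LCK (a SRC family kinase), rose, and the summed level of the 9 was 10.1 to 12.4 RPKM in control and 83.4 to 95.7 RPKM with TPA. Of 6 NK-cell markers, the cytotoxic granule genes PRF1 and GZMB rose, NKG7 fell and KLRD1 was at 0 throughout, with sums of 12.9 to 13.5 RPKM in control and 19.5 to 22.7 RPKM with TPA. Of 10 myeloid markers, 7 were under 0.1 RPKM in every library and CSF1R rose, with sums of 0.667 to 1.03 RPKM and 3.17 to 3.96 RPKM. CD28, PRF1, GZMB and CSF1R passed the filter only through their TPA values. The part of these genes in the receptor values was not tested.

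The genes that carry the signal below the receptors were read from lists. Of 10 tested JAK and STAT genes, 6 rose, 0 fell and 4 did not pass, with a median of 0.72. Beside this and each list below stand the shares over all genes tested. Of those genes, 28.4% rose, 29.8% fell and 58.2% changed in either direction, with a median of -0.02. JAK3, the kinase bound to the common gamma chain, rose from 3.90 and 3.89 RPKM to 15.8 and 15.5 RPKM (1.76 ± 0.13, adjusted p 1.25e-05). JAK1, which serves most of these receptors, rose from 26.0 and 25.9 RPKM to 37.5 and 37.7 RPKM (0.52 ± 0.13, adjusted p 0.00889). STAT2, an interferon pathway factor, rose 4.75-fold (1.99 ± 0.14, adjusted p 1.27e-05). The paralogs for the main IL-2 and IL-7 signal parted, with STAT5A rising from 11.3 and 10.4 RPKM to 25.9 and 22.7 RPKM (1.10 ± 0.14, adjusted p 2.76e-04). STAT5B was at 32.2 and 31.1 RPKM in control and 29.7 and 34.0 RPKM with TPA, where the groups overlapped and the gene did not pass (0.01 ± 0.14, adjusted p 0.966). How reads shared by these similar genes were counted is not given in the sources used here.

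Negative regulators of cytokine receptors showed no common direction, with 4 risen, 3 fallen and 10 that did not pass of 17 tested, and a median of 0.00. The phosphatase gene PTPN6 rose 2.92-fold (1.51 ± 0.16, adjusted p 9.75e-05) and the adaptor gene SH2B3, a brake on JAK signalling, 2.29-fold (1.09 ± 0.13, adjusted p 2.21e-04). SOCS1, an inhibitor of JAK kinases, rose from 1.49 and 1.41 RPKM to 2.33 and 2.92 RPKM (0.56 ± 0.14, adjusted p 0.00899). SOCS2, a STAT5-induced feedback gene, fell from 7.14 and 7.30 RPKM to 0.318 and 0.580 RPKM (-2.51 ± 0.14, adjusted p 3.75e-06), and it passed the filter only through its control values, so it had to be lower with TPA. CISH, another STAT5-induced gene, was at 1.08 and 1.22 RPKM and then 0.826 and 0.797 RPKM, and it did not pass (adjusted p 0.131). SOCS3 was at 0.016 RPKM or less in every library, and the phosphatase gene PTPN11 fell (-0.63 ± 0.15, adjusted p 0.00690).

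Of 9 tested genes linked to IL-7 receptor and STAT5 signalling in lymphoid cells, 2 rose, 4 fell and 3 did not pass, with a median of -0.25. The list holds SOCS2, and CCND3, the D-type cyclin of dividing pre-B cells, fell from 577 and 631 RPKM in control to 53.5 and 70.0 RPKM with TPA (-3.28 ± 0.16, adjusted p 2.18e-06). The survival gene BCL2, named after its values were seen, fell from 22.6 and 22.9 RPKM to 7.85 and 9.91 RPKM (-1.27 ± 0.15, adjusted p 1.80e-04). Its relative MCL1 rose (0.75 ± 0.13, adjusted p 0.00174), as did the kinase gene PIM1 (1.29 ± 0.32, adjusted p 0.00904), which was at 15.8 and 6.47 RPKM in the TPA libraries. The list thus held survival genes in both directions.

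The adaptor MyD88 carries the signal of IL-1 and Toll-like receptors. Of 12 tested MyD88 pathway genes, 2 rose, 1 fell and 9 did not pass (median 0.20). The ubiquitin ligase gene TRAF6 rose (0.58 ± 0.13, adjusted p 0.00505), as did TOLLIP, an inhibitory adaptor (0.52 ± 0.14, adjusted p 0.0135), and the kinase gene IRAK1 fell from 83.9 and 82.2 RPKM to 32.1 and 34.7 RPKM (-1.29 ± 0.13, adjusted p 8.62e-05). Of 7 tested genes that process IL-1 and IL-18, 2 rose (CASP8 and NLRP1), 3 fell and 2 did not pass (median -0.19). CASP1, the protease that matures both cytokines, fell 2.40-fold (-1.09 ± 0.18, adjusted p 0.00143), and the inflammasome adaptor gene PYCARD fell too (-0.71 ± 0.16, adjusted p 0.00599). The other fallen gene, NLRP3, was named after its values were seen. It passed the filter only through its control values and so had to be lower with TPA.

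Of 9 tested IL-17 signalling genes, 3 rose, 5 fell and 1 did not pass (median -0.58), although the receptor chains IL17RA and IL17RB rose. The adaptors TRAF5 (-1.32 ± 0.15, adjusted p 1.42e-04) and TRAF2 (-1.12 ± 0.14, adjusted p 2.51e-04) fell. The RNase gene ZC3H12A (0.64 ± 0.13, adjusted p 0.00313) and NFKBIZ, an IκB family regulator (0.64 ± 0.13, adjusted p 0.00395), rose, where NFKBIZ passed the filter only through its TPA values and had to be higher.

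Partner chains and ligands without an IL symbol were mostly unmeasured, with 5 of 23 tested, of which 4 rose and 1 did not pass (median 1.38, which is the value of CLCF1). Of the 4, CLCF1 and CSF1R passed the filter only through their TPA values and so had to be higher with TPA. CSF2RB, the common beta chain for IL-3 and IL-5, rose from 7.75 and 7.21 RPKM to 10.7 and 12.1 RPKM (0.54 ± 0.13, adjusted p 0.00919). CLCF1, a ligand of the IL6ST family named after its values were seen, rose from 0.061 and 0.037 RPKM to 2.04 and 1.46 RPKM (1.38 ± 0.15, adjusted p 1.09e-04). CSF1R, the receptor for IL-34 and for macrophage colony-stimulating factor, rose 5.25-fold (1.40 ± 0.14, adjusted p 9.22e-05), and the tetraspanin gene CD9 rose 4.58-fold (2.18 ± 0.17, adjusted p 1.77e-05). EBI3, the partner subunit of IL-27 and IL-35, was at 0.019 and 0.058 RPKM in control and 1.21 and 0.804 RPKM with TPA, and was under the filter.

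Cytokine receptors can be cut from the cell surface, and 2 genes of this process rose. ADAM17, the protease that sheds the IL-6 receptor and other receptors and ligands, rose 8.52-fold, from 18.5 and 17.6 RPKM to 160.0 and 148 RPKM (3.02 ± 0.13, adjusted p 1.14e-06). RHBDF2, which carries ADAM17 to the surface, rose from 2.40 and 2.27 RPKM to 7.60 and 6.35 RPKM (1.25 ± 0.14, adjusted p 1.38e-04). Both TPA values of each gene were above both control values. Of the 3 genes of this list that were tested, the remaining 1 did not pass.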

How the data were processed

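The RNA profiles of 4 libraries were read from 1 table in which the authors deposited RPKM values, per the file headers, for 27142 genes. The submitters' processing notes name CASAVA 1.8, Bowtie 1.12, TopHat, SAMtools, HOMER and the build hg19, without roles or order. Strand use and the handling of reads with several matches are not given in the sources used here. RPKM is no count, so no count model was fitted. Read totals are unknown, so no counting interval is given, and relative depth came from the steps of values between 0.03 and 0.15 RPKM. Groups came from sample titles. No label says that replicates were separate cultures, so p-values measure only the spread between these libraries.

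Genes at 1 RPKM or more in 2 or more libraries were fitted as log2(RPKM + 1) with limma 3.58.1 in R 4.3.3 (empirical Bayes with a trend, 5.88 prior and 2 residual degrees of freedom, two-sided, Benjamini-Hochberg adjustment over 12159 genes). The script was tested on simulated data. Of the members, 67 matched RefSeq's promoter table, which is on GRCh38.p14, as are the overlaps and neighbours. Figures were drawn with matplotlib 3.10.9.

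Every member that passed the filter was named, members under it where a library reached 0.1 RPKM or where a well-known cytokine was concerned, and from each pathway list the 2 smallest p in each direction plus a set of JAK, STAT, SOCS and shared-chain genes. The members, lists, complexes and motifs were chosen with earlier results of these data known. Alternatives were pseudocounts of 0.1 and 0.5, other filters, scalings, no trend, a threshold of 0.01, a replicate block, each library left out, and 2 chosen after seeing the data, a filter on the mean at 0.3 RPKM and a fit of protein-coding genes alone.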

Additional observations from a re-analysis of the deposited data

How the results depend on the processing

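The 17 rises and 2 falls among interleukin and receptor genes came from fits with 2 libraries per group, so a change of 1 library can end a call. The number that rose was 17 with pseudocounts of 0.1 and 0.5, with either other scaling, without the trend and with protein-coding genes only. It was 23 of 57 with no filter on low values and 20 of 25 with the filter on the mean, where 3855 of 20115 and 3759 of 13542 genes rose. The 23 leave out IL12RB2, IL27RA and IL4R and take in genes near 0. One of these, IL6R, was at 0 in both controls and could not be lower with TPA. It was 12 of 13 with a filter at 5 RPKM (2461 of 9149 genes) and 13 of 19 at a threshold of 0.01 (2556 of 12159 genes). The number that fell was 2 in every alternative except the filter at 5 RPKM, where it was 1 because IL17D is not tested there. With each library left out in turn, 15 to 17 members rose and 2 fell. Over all genes tested, 3454 rose and 3621 fell, and with each library left out in turn 2726 to 3519 rose and 2744 to 3679 fell.

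Of 260 refits of the 19 single genes, 253 kept their direction and side of the threshold, 7 lost the call and 0 reversed. The lost calls were those of IL12RB2, IL17RB, IL27RA and IL4R given in the report, and the cause was not tested. Without either control library the prior degrees of freedom became infinite, so those p-values cannot be set against the others, although they are counted in the 253 and the 7. Under the main filter IL1RN, IL2RA and IL2RB had to be higher with TPA, so their calls could not reverse. At a pseudocount of 0.1 the differences grew to 6.49 for IL2RA, 5.27 for IL2RB, 4.70 for IL1RN and -0.87 for IL17D. With the filter on the mean, IL20RB was tested and rose (0.51, adjusted p 0.0139 by limma). IL18 (0.89) and IL23A (0.48) were called too, but their control values were under that filter, so they reached it only through TPA and had to be higher.

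The replicate numbers come from titles that do not say what they share. The correlation of the deviations of same-numbered libraries was 0.361 across genes, over only 2 pairs. With the replicate block, 17 members rose and 2 fell, and over all genes 3946 rose and 4288 fell. Values under about 0.15 RPKM rest on few reads, so a member listed at 0 or near it was not detectable at this depth and is not shown to be absent.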
